A study of Rattus norvegicus with 11 samples.

Results

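Collagen and laminin genes were followed in islets of rat daughters whose fathers ate different diets. The genes were those whose single symbol starts with Col, a number and the letter a, or with Lama, Lamb or Lamc and a number, and the probe of highest mean stood for each gene. They numbered 32 of the 14324 genes measured, represented on the array by 34 probes. By the structure of the chain, 10 encode fibrillar collagens, 3 basement membrane collagens, 7 laminins and 12 other collagens. Further chains, among them Col4a2, Col6a1, Col15a1, Col18a1, Lama4 and Lamb1, are not analysed here.

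The 5 HFD-father samples were islets of Sprague-Dawley daughters whose fathers had eaten high-fat pellets (HFD, 43% fat), and the 6 chow-father samples were islets of daughters of males kept on chow (9% fat). All mothers ate chow, all fathers were mated at 15 weeks of age, and daughters of both groups were weaned onto chow at 3 weeks. Islets were taken at 13 weeks. The labels describe the HFD-father daughters as glucose intolerant, and whether a sample is 1 rat, a pool or a littermate of another is not stated, so p-values reflect only how far these samples scatter, and some of that scatter may be technical. Isolated islets hold other cell types as well, and in whole-islet RNA fewer cells of a type and less RNA per cell cannot be told apart.

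Collagens assemble as helical trimers of alpha chains. Fibrillar collagens pack into the cables of interstitial connective tissue, while type IV collagen forms the sheet of the basement membrane and laminins, trimers of an alpha, a beta and a gamma chain, form a second network that cells bind through integrins and dystroglycan. In mouse islets the basement membrane along capillaries is known to be laid down mainly by endothelial cells, and the capsule around the islet holds fibrillar collagens made by fibroblasts and pancreatic stellate cells.

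Array medians lay between 6.14 and 6.20 on the log2 scale, and pairs of arrays correlated at 0.9869 to 0.995. For every probe, the mean over HFD-father array 5 and chow-father arrays 5 and 6 equalled the mean over the other 8 arrays to within 5.83e-05, an equality that separate centring would give, between a larger set (4 HFD-father and 4 chow-father arrays) and a smaller set (1 HFD-father and 2 chow-father arrays). This was found from the values and is named in no label. Under such centring a level is relative to its own set, so a low array among the 3 comes with higher values in the other 2, and ranks or overlaps that set arrays of different sets side by side describe the deposited values only. The islet hormone genes Ins1, Ins2 and Gcg were present on all arrays, with islet endocrine marker means of 12.14 to 12.42 in HFD-father and 12.23 to 12.50 in chow-father arrays. Markers of other cells were measured too. Means of 16 measured stellate cell, fibroblast and pericyte markers ran from 6.62 to 7.10 in HFD-father and from 6.58 to 7.18 in chow-father arrays. Means of 10 endothelial markers ran from 7.35 to 7.73 in HFD-father and from 7.29 to 7.55 in chow-father arrays, those of 12 acinar markers from 12.80 to 13.29 in HFD-father and from 12.08 to 13.31 in chow-father arrays, and those of 12 macrophage markers from 5.79 to 6.44 in HFD-father and from 5.73 to 6.41 in chow-father arrays. Means of 6 ductal markers ran from 6.64 to 7.57 in HFD-father and from 6.45 to 7.48 in chow-father arrays, and those of 8 Schwann cell markers from 5.59 to 5.68 in HFD-father and from 5.62 to 5.75 in chow-father arrays. No test set a probe against background, and log2 levels are not compared between genes.

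Whether islet transcripts of daughters differ with the diet of the father was asked of each gene with limma, fitted over all 27342 probes. None of the 32 genes passed a Benjamini-Hochberg adjusted p of 0.05, and 0% of all probes did. The lowest adjusted p among the 32 was 0.446, for Col10a1. At an unadjusted p under 0.05, 5 genes were lower in HFD-father arrays (15.6%), where 5.28% of all 14324 genes were, and 0 were higher, where 2.97% of all genes were. Whatever their p, 25 of the 32 (78.1%) had a difference below 0, against 48.1% of all genes. After median centring it was 22 (68.8%), against 37.2% of all genes. Without chow-father replicate 5 it was 20 (62.5%), against 48.2%, and without HFD-father replicate 3 it was 21 (65.6%), against 49.0%. In the larger array set alone it was 27 (84.4%), against 52.4%. In the main fit 8 of 10 fibrillar collagens had a difference below 0, 2 of 3 basement membrane collagens, 4 of 7 laminins and 11 of 12 other collagens. The class medians were -0.050 for fibrillar collagens, -0.014 for basement membrane collagens, -0.005 for laminins and -0.079 for other collagens, beside 0.004 over all genes. In 0 of the 32 genes did the groups separate completely, which happened for 0.538% of all genes with HFD-father arrays lower and for 0.349% with HFD-father arrays higher.

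**Figure D1:**
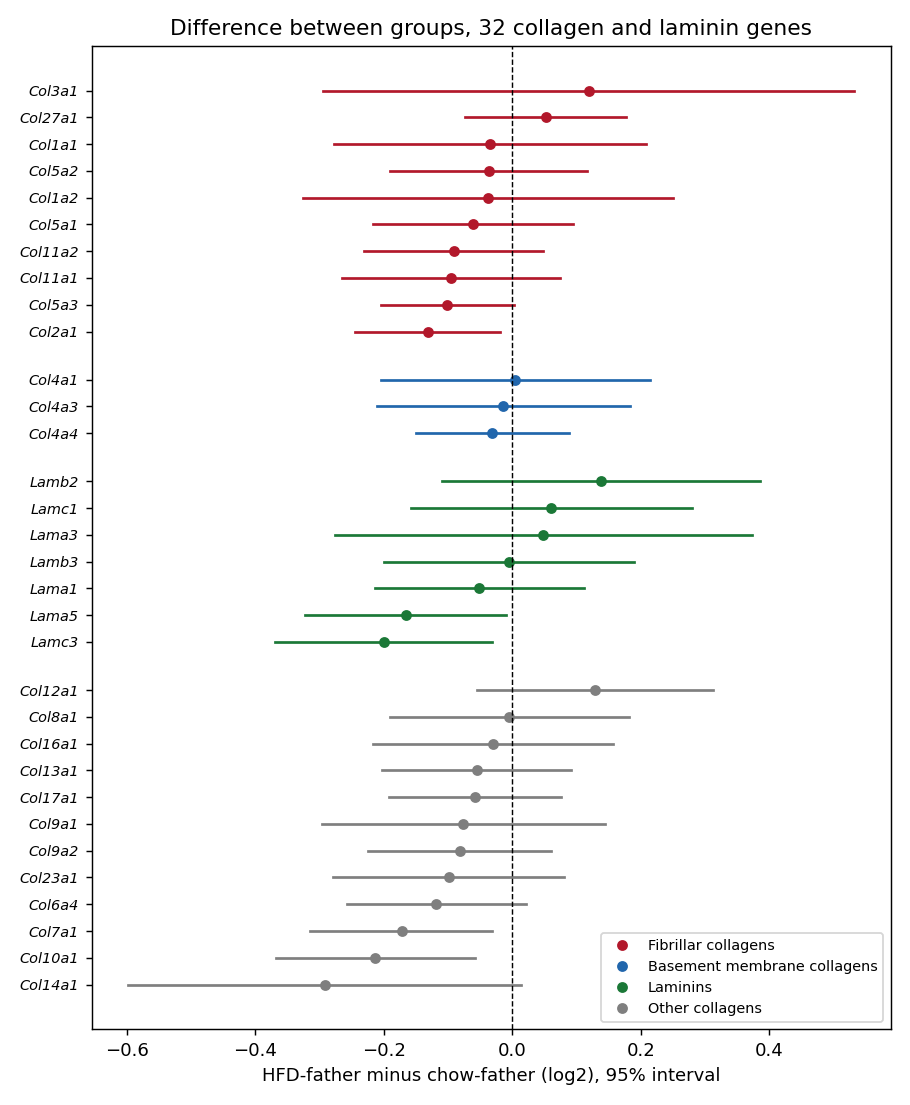
Difference between HFD-father and chow-father arrays for each of the 32 genes, on the log2 scale (x axis), with genes down the page grouped by class. Points are limma estimates and bars 95% intervals; the intervals of 5 genes lie wholly below 0, and that of Col3a1, from -0.29 to 0.53, is wide.

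Over all probes the differences varied with brightness. In deciles of all probes by mean level, the median difference was -0.006, -0.039 and -0.053 in deciles 1 to 3, which hold none of the 32 genes. It was -0.059 in decile 4, -0.048 in decile 5, -0.018 in decile 6, 0.011 in decile 7, 0.028 in decile 8 and 0.034 in decile 9. The 5 collagen and laminin genes in decile 4 had a median of -0.058, the 6 in decile 5 -0.063, the 8 in decile 6 -0.072, the 7 in decile 7 -0.035, the 4 in decile 8 0.033 and the 2 in decile 9 -0.012. The members' medians, of 2 to 8 genes each, were below 0 in deciles 4 to 7 and 9 and above 0 in decile 8. The part of brightness in the genes' differences was not tested. Marker lists of several other cell types had medians of the other sign. Of the 16 stellate cell, fibroblast and pericyte markers 12 were above 0 (median 0.092), of the 10 endothelial markers 9 (median 0.098) and of the 12 acinar markers 11 (median 0.12), with 0 genes of these lists at an unadjusted p under 0.05. Other lists were more mixed. Of the 12 islet endocrine markers 8 were below 0 (median -0.002), of the 6 ductal markers 3 (median 0.037) and of the 12 macrophage markers 5 (median 0.069). Over all genes 7439 of 14324 differences were above 0. Of the 8 Schwann cell markers 4 were below 0 and 4 above (median -0.047). At an unadjusted p under 0.05, 3 of the 8 were lower and 1 higher, against 5.28% and 2.97% of all genes. In Gfap every HFD-father array lay below every chow-father array (difference -0.24, adjusted p = 0.369, limma), as in 0.538% of all genes. The part of any of these cells in the differences was not tested.

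Of the fibrillar collagens, Col3a1, Col1a2 and Col1a1 varied most between arrays of the same group. Col3a1 encodes the chain of type III collagen, the fibril former of elastic and vascular connective tissue. Its log2 levels were 7.79, 7.79, 7.41, 7.85 and 8.14 in HFD-father arrays 1 to 5, against 6.97, 7.87 and 8.08 as the lowest, median and highest chow-father arrays. Only HFD-father array 5, at 8.14, lay above the highest chow-father array, and chow-father array 6, at 6.97, was the lowest of all. Both belong to the smaller set, whose values around the gene's mean were 0.41 in HFD-father array 5, against 0.36 and -0.76 in chow-father arrays 5 and 6. The groups overlapped over nearly the whole range, with a difference of 0.12 ± 0.19 (SE), a 95% interval of -0.29 to 0.53 and an adjusted p of 0.876 (limma). The difference was -0.041 within the larger array set and 0.61 within the smaller, which has 1 HFD-father array.

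Col1a1 and Col1a2 encode the chains of type I collagen, the main collagen of scar and capsule. Col1a1 had levels of 7.44, 7.40, 7.24, 7.41 and 7.51 in HFD-father arrays 1 to 5, against 6.98, 7.50 and 7.77 as the lowest, median and highest chow-father arrays. All 5 HFD-father arrays lay within the chow-father range, with a difference of -0.035 ± 0.11 (SE) and an interval of -0.28 to 0.21 (adjusted p = 0.949, limma). Col1a2 had 7.90, 7.91, 7.52, 7.91 and 8.07 in HFD-father arrays 1 to 5, against 7.42, 8.03 and 8.16 as the lowest, median and highest chow-father arrays. Here too each HFD-father array fell inside the chow-father range, the difference being -0.038 ± 0.13 (SE) with an interval of -0.33 to 0.25 (adjusted p = 0.954, limma). Within the larger set the differences were -0.091 for Col1a1 and -0.14 for Col1a2, and within the smaller 0.13 and 0.28.

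These transcripts went up and down together from array to array. Of 10 pairs of chains chosen because they share a trimer, a fibril or a promoter region, 5 had both chains measured. Over the 11 arrays Col1a1 and Col1a2 correlated with a Pearson r of 0.936 (permutation p = 1e-05, the smallest that 100000 permutations can give; adjusted over the 5 pairs 5e-05) and a Spearman rho of 0.927 (permutation p = 0.00013, adjusted 0.000525). Col1a1 and Col3a1 gave a Pearson r of 0.907 (permutation p = 9e-05, adjusted 0.000225) and a Spearman rho of 0.909 (permutation p = 0.00021, adjusted 0.000525). Within the 8 arrays of the larger set r was 0.967 for Col1a1 with Col1a2 (exact permutation p = 0.000298) and 0.88 for Col1a1 with Col3a1 (exact permutation p = 0.00434), and the smaller set holds too few arrays for a value. With the group means subtracted r was 0.935 and 0.941. Without chow-father arrays 5 and 6, the 2 farthest from the Col1a1 median, r was 0.969 and 0.872.

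The arrays with low fibrillar collagen were the same ones for all 3 transcripts. HFD-father array 3 was the lowest HFD-father array in Col1a1, Col1a2 and Col3a1, at 7.24, 7.52 and 7.41. Chow-father array 6 was the lowest chow-father array in each, at 6.98, 7.42 and 6.97, and chow-father array 4 the next lowest, at 7.32, 7.70 and 7.31. The same 3 arrays had the lowest means of the stellate cell, fibroblast and pericyte markers, each marker standardised over arrays, with -0.78 in HFD-father array 3, -0.84 in chow-father array 4 and -0.93 in chow-father array 6. The other 8 arrays ranged from -0.061 to 0.76. Endothelial marker means were lowest in the same 3 arrays, at -0.58, -0.86 and -0.97 in that order. Macrophage marker means there were -0.74, -0.71 and -0.985, and chow-father array 2 was also low, at -0.79. The acinar marker mean was -2.44 in chow-father array 4 but 0.135 in chow-father array 6. The part of any of these cells in the transcript levels was not tested. The stellate cell, fibroblast and pericyte list holds no collagen or laminin gene. With its mean as a covariate in the fit the difference was -0.098 ± 0.073 (SE) for Col1a1, -0.12 ± 0.073 for Col1a2 and 0.004 ± 0.109 for Col3a1, where SEs without the covariate were 0.11, 0.13 and 0.19, and none of the 3 passed.

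**Figure D2:**
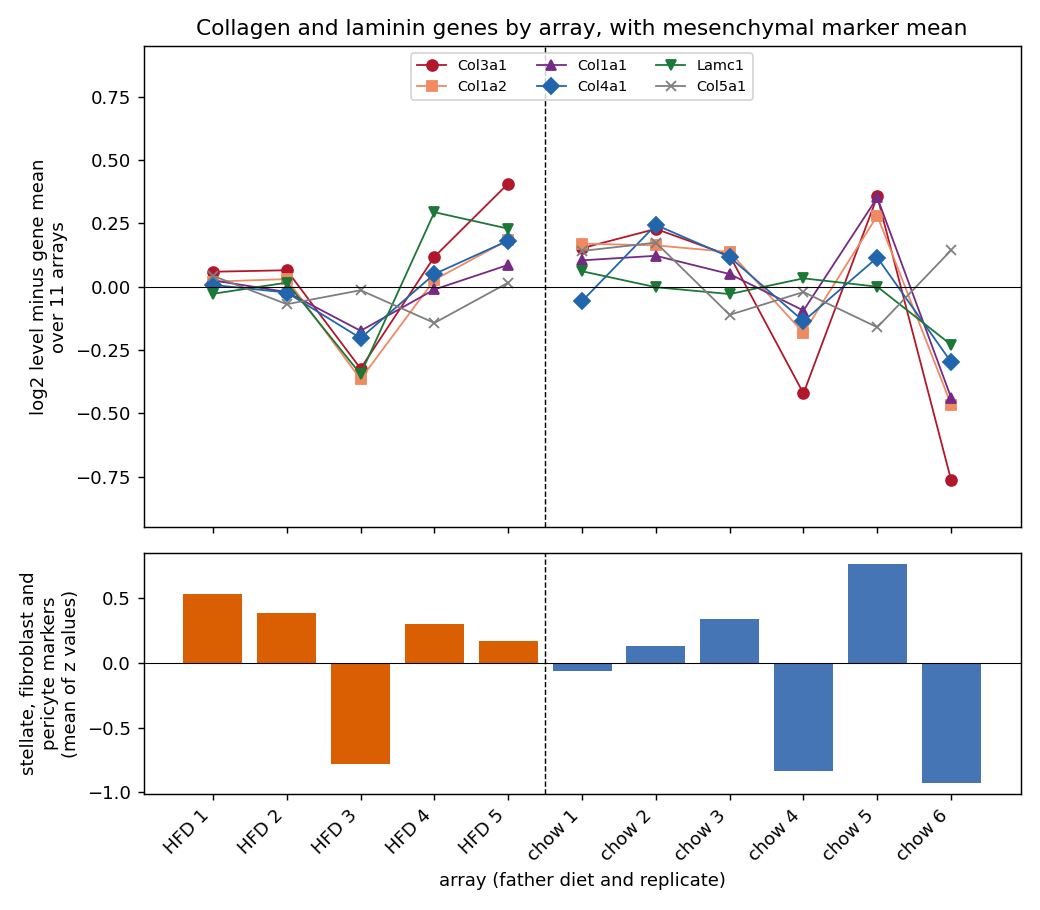
Upper panel: log2 level of 6 genes in each array after subtracting the gene's mean over the 11 arrays. Lower panel: mean of the standardised stellate cell, fibroblast and pericyte markers in the same arrays, with HFD-father arrays left of the dashed line and chow-father arrays right of it. HFD 3, chow 4 and chow 6 are low in Col3a1, Col1a2 and Col1a1 and in the markers, whereas Col5a1 is above its mean in chow 6.

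A stretch upstream of Col1a2 is shown because, of this co-varying group, its upstream sequence was the one in the RefSeq table (GRCr8). The stretch, chr4:33518307-33518416 on the plus strand, is the far part of the 250 bases before the annotated start. The bases nearest the start are not shown. Capitals mark a CCAAT box read on the opposite strand (ATTGG), 221 bases before the start, and a TATAAA, 170 bases before it.
Col1a2: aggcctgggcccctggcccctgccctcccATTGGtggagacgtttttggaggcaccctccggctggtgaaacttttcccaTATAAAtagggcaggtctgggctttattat
RefSeq promoters were matched for 26 of the 32 genes. Within 250 bases before the start, on either strand, TATAAA was found in 4 of the 26 (15.4%) and in 13.1% of 27457 rat promoters, 1 per symbol. CCAAT was found in 8 (30.8%) against 34.3% of all, and GGGCGG, the letters of a GC box, in 14 (53.8%) against 32.4% of all. No motif match in the printed stretches overlapped another.

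Type V collagen chains, which start and limit the width of type I fibrils, gave no such positive correlation. Col5a1 had 6.70, 6.59, 6.64, 6.52 and 6.67 in HFD-father arrays 1 to 5, against 6.50, 6.72 and 6.83 as the lowest, median and highest chow-father arrays, and all HFD-father arrays lay inside the chow-father range (difference -0.061 ± 0.072 (SE), adjusted p = 0.821, limma). Col5a2 had 6.42, 6.49, 6.35, 6.56 and 6.38 in HFD-father arrays 1 to 5, against 6.31, 6.45 and 6.69 as the lowest, median and highest chow-father arrays, again within the chow-father range (difference -0.036 ± 0.071 (SE), adjusted p = 0.904, limma). Over the 11 arrays Col5a1 and Col5a2 had a Pearson r of -0.436 (permutation p = 0.18, adjusted 0.3) and a Spearman rho of -0.373 (permutation p = 0.262, adjusted 0.327). Within the larger set r was 0.054, and without chow-father arrays 2 and 6 it was -0.63.

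Col2a1 and Col11a2, fibrillar chains better known from cartilage, and Col5a3 were among those with differences below 0. Col2a1, the chain of type II collagen, had 6.46, 6.36, 6.41, 6.46 and 6.31 in HFD-father arrays 1 to 5, against 6.46, 6.52 and 6.65 as the lowest, median and highest chow-father arrays. Of its HFD-father arrays 3 lay below the lowest chow-father array and the other 2 just above it, a difference of -0.13 ± 0.052 (SE) with an interval of -0.24 to -0.019 (unadjusted p = 0.0252, adjusted p = 0.491, limma). Col5a3, another type V chain, had 6.45, 6.34, 6.33, 6.28 and 6.32 in HFD-father arrays 1 to 5, against 6.38, 6.45 and 6.50 as the lowest, median and highest chow-father arrays, so that HFD-father array 1 alone reached the chow-father range. Its difference was -0.10 ± 0.048 (SE) (adjusted p = 0.537, limma). Col11a2, a chain of type XI collagen, had 7.22, 6.97, 6.98, 6.91 and 6.93 in HFD-father arrays 1 to 5, against 6.99, 7.12 and 7.19 as the lowest, median and highest chow-father arrays. HFD-father array 1 was above and the other 4 below every chow-father array, and the difference was -0.091 ± 0.064 (SE) (adjusted p = 0.688, limma). Without HFD-father replicate 1 it was -0.15, with an unadjusted p under 0.05 and an adjusted p of 0.332 (limma). The remaining fibrillar chains, Col11a1 and Col27a1, differed by -0.095 and 0.052.

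For the basement membrane collagens the estimated differences were close to 0. Col4a1, the chain found in nearly all basement membranes, had 7.89, 7.86, 7.69, 7.94 and 8.07 in HFD-father arrays 1 to 5, against 7.59, 7.92 and 8.13 as the lowest, median and highest chow-father arrays. Every HFD-father array fell inside the chow-father range, and the difference was 0.005 ± 0.097 (SE) with an interval of -0.20 to 0.21 (adjusted p = 0.992, limma). Its sign turned to -0.021 after quantile normalization. Like the type I and III chains, Col4a1 was lowest in chow-father array 6 among chow-father arrays and in HFD-father array 3 among HFD-father arrays.

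Col4a3 and Col4a4 encode chains that join with Col4a5 in specialised basement membranes such as that of the kidney glomerulus. Col4a3 had 7.01, 6.69, 6.53, 6.54 and 6.77 in HFD-father arrays 1 to 5, against 6.50, 6.73 and 6.88 as the lowest, median and highest chow-father arrays, with HFD-father array 1 above every chow-father array. The difference was -0.014 ± 0.091 (SE) with an interval of -0.21 to 0.18 (adjusted p = 0.977, limma), and 0.012 after median centring. Col4a4 had 6.11, 6.26, 6.16, 6.04 and 6.18 in HFD-father arrays 1 to 5, against 6.08, 6.19 and 6.28 as the lowest, median and highest chow-father arrays. Only HFD-father array 4 fell outside the chow-father range, below it, and the difference was -0.031 ± 0.055 (SE) with an interval of -0.15 to 0.089 (adjusted p = 0.895, limma).

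The 2 genes lie head to head, with 412 bases between their annotated starts on GRCr8, and the 250 bases before each start share 88 bases read on opposite strands. These windows are shown because the genes start from a common stretch in opposite directions. The Col4a3 window is chr9:91323740-91323989 on the plus strand, and capitals mark a GGGCGG 72 bases before the start. The Col4a4 window is chr9:91323578-91323827 on the minus strand and held none of the searched motifs.
Col4a3: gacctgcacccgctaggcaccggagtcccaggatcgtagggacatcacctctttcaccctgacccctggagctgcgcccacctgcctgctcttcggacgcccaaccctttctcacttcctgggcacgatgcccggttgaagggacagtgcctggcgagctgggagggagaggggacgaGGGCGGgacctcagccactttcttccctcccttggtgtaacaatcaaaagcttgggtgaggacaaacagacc
Col4a4: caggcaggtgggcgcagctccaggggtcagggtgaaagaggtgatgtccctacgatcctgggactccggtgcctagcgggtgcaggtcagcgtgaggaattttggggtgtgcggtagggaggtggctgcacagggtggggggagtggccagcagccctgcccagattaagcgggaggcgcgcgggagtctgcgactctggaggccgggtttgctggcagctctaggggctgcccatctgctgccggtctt
Over the 11 arrays Col4a3 and Col4a4 had a Pearson r of 0.363 (permutation p = 0.275, adjusted 0.344) and a Spearman rho of 0.4 (permutation p = 0.226, adjusted 0.327), so a shared variation was not detected with this number of arrays. Within the larger set r was 0.132, and without chow-father array 6 and HFD-father array 1 it was 0.6.

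**Figure D3:**
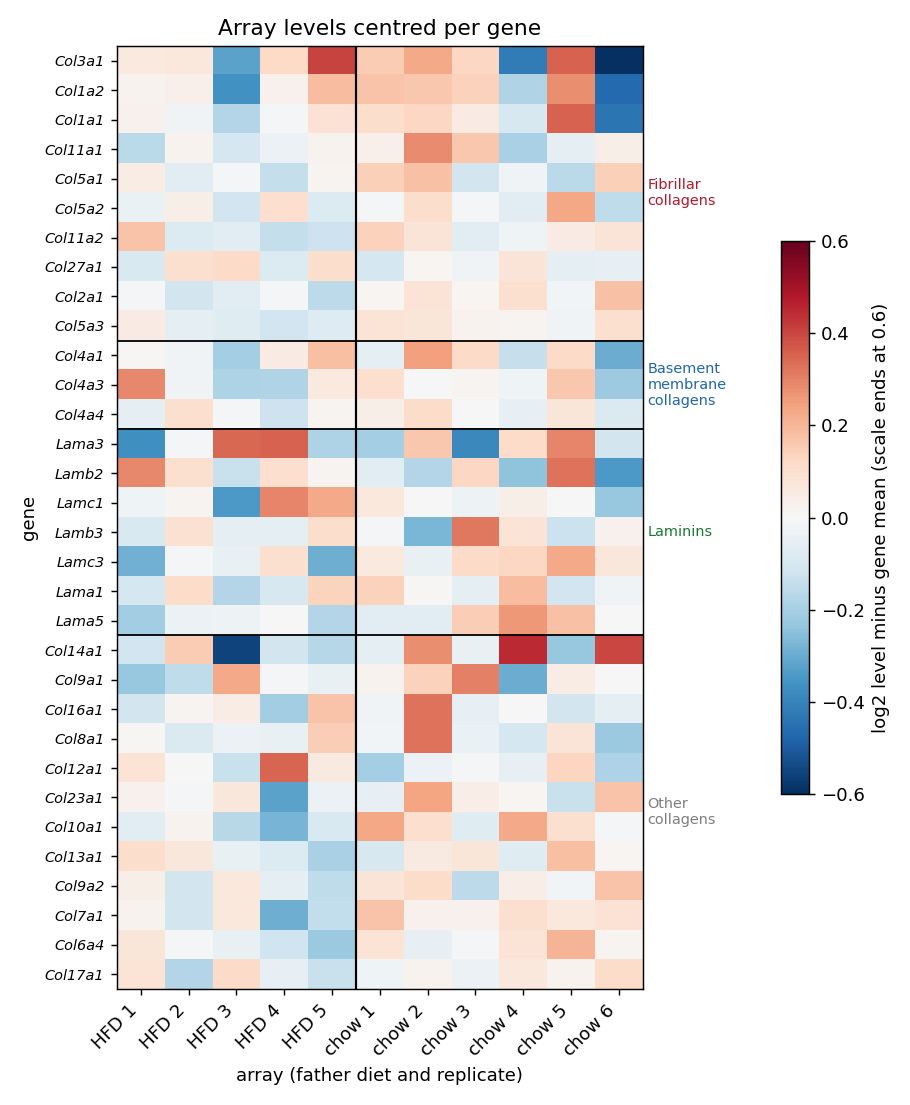
Log2 level of each of the 32 genes (down) in each of the 11 arrays (across) after subtracting the gene's mean, with HFD-father arrays left of the vertical line; red is above and blue below the mean, and colours stop at 0.6 although Col3a1 in chow 6 lies further below. Genes are grouped by class and ordered within it by the spread within groups; low values of Col3a1, Col1a2 and Col1a1 coincide in HFD 3, chow 4 and chow 6.

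Laminin chains differed in sign among themselves. Lama5, the alpha chain of most adult endothelial and epithelial basement membranes, had 7.06, 7.24, 7.24, 7.27 and 7.10 in HFD-father arrays 1 to 5, against 7.21, 7.34 and 7.53 as the lowest, median and highest chow-father arrays. HFD-father arrays 1 and 5 lay below every chow-father array and the other 3 within the lower part of the chow-father range. The difference was -0.17 ± 0.072 (SE) with an interval of -0.32 to -0.009 (unadjusted p = 0.0395, adjusted p = 0.516, limma), -0.14 within the larger array set and -0.26 within the smaller. Lamc3, a gamma chain of restricted occurrence, had 5.07, 5.35, 5.32, 5.46 and 5.07 in HFD-father arrays 1 to 5, against 5.32, 5.45 and 5.59 as the lowest, median and highest chow-father arrays. HFD-father arrays 1 and 5 stood well below the rest and array 3 marginally below the chow-father range, while arrays 2 and 4 lay inside it. The difference was -0.20 ± 0.078 (SE), with an interval of -0.37 to -0.031 (unadjusted p = 0.0241, adjusted p = 0.491, limma).

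Lamb2, a beta chain of vascular and neuromuscular basement membranes, had 7.59, 7.40, 7.17, 7.41 and 7.32 in HFD-father arrays 1 to 5, against 6.96, 7.18 and 7.63 as the lowest, median and highest chow-father arrays. All HFD-father arrays were inside the chow-father range, 4 of them above the chow-father mean, and the difference was 0.14 ± 0.11 (SE) (interval -0.11 to 0.39, adjusted p = 0.737, limma). It was 0.081 without chow-father replicate 6 and 0.22 without chow-father replicate 5. Lamc1, the gamma chain shared by most laminins, had 7.90, 7.94, 7.58, 8.22 and 8.15 in HFD-father arrays 1 to 5, against 7.69, 7.92 and 7.98 as the lowest, median and highest chow-father arrays. HFD-father arrays 4 and 5 lay above every chow-father array and HFD-father array 3 below every one, which left a difference of 0.061 ± 0.10 (SE) (interval -0.16 to 0.28, adjusted p = 0.882, limma). Lamc1 stood at -0.031 within the larger array set and at 0.34 within the smaller.

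Lama5 and Lamb2, which join in one trimer, had a Pearson r of -0.113 over the 11 arrays (permutation p = 0.74, adjusted 0.74) and a Spearman rho of -0.036 (permutation p = 0.924, adjusted 0.924), and r was -0.488 within the larger set. Without chow-father arrays 4 and 5 r was -0.211, and with the group means subtracted it was 0.12. Lama3 and Lamb3, chains of the laminin that anchors epithelial cells, differed by 0.048 and -0.005, and Lama1, an alpha chain of early embryonic basement membranes, by -0.051.

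The lowest unadjusted p-values of all 32 genes were found among the other collagens. Col10a1, the chain of type X collagen of hypertrophic cartilage, had 5.51, 5.59, 5.41, 5.29 and 5.48 in HFD-father arrays 1 to 5, against 5.50, 5.67 and 5.80 as the lowest, median and highest chow-father arrays. HFD-father arrays 3, 4 and 5 lay below every chow-father array, and arrays 1 and 2 within the chow-father range. The difference was -0.21 ± 0.071 (SE) with an interval of -0.37 to -0.058, and did not pass (unadjusted p = 0.0108, adjusted p = 0.446, limma). Within the larger set it was -0.24 and within the smaller -0.14.

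Col7a1, whose product forms the anchoring fibrils beneath epithelia, had 6.27, 6.14, 6.32, 5.96 and 6.10 in HFD-father arrays 1 to 5, against 6.28, 6.33 and 6.43 as the lowest, median and highest chow-father arrays. All HFD-father arrays except array 3 lay below the lowest chow-father array. The difference was -0.17 ± 0.065 (SE) with an interval of -0.31 to -0.031 (unadjusted p = 0.0208, adjusted p = 0.483, limma), -0.16 within the larger set and -0.23 within the smaller. Col10a1, Col7a1, Lamc3, Col2a1 and Lama5 are named for their low p, so their direction is no separate support. The count of 5 became 2 after median centring (Col10a1 and Col7a1), where 3.04% of all genes were lower at that level. It was 2 without HFD-father replicate 5 (the same 2 genes), where 3.48% of all genes were, and 1 in the larger array set alone (Col10a1), where 3.13% were. It was 7 when all probes of a gene were averaged, where 5.53% were, Col5a3 and Col6a4 being the added genes. That fit ran over 14324 genes. Col5a3 has 1 probe, and its difference of -0.10 was the same as in the main fit.

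Col14a1 encodes a collagen that sits on the surface of fibrils, and gave the largest difference of the 32. Its levels were 7.09, 7.36, 6.65, 7.10 and 7.04 in HFD-father arrays 1 to 5, against 6.98, 7.33 and 7.66 as the lowest, median and highest chow-father arrays. HFD-father array 3, at 6.65, was the lowest of all arrays and the other 4 HFD-father arrays lay inside the chow-father range. The difference was -0.29 ± 0.14 (SE) with an interval of -0.60 to 0.013 (adjusted p = 0.548, limma), and -0.19 without HFD-father replicate 3. Chow-father arrays 4 and 6, low in the type I and III chains, held the highest 2 values of Col14a1, 7.66 and 7.61.

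**Figure D4:**
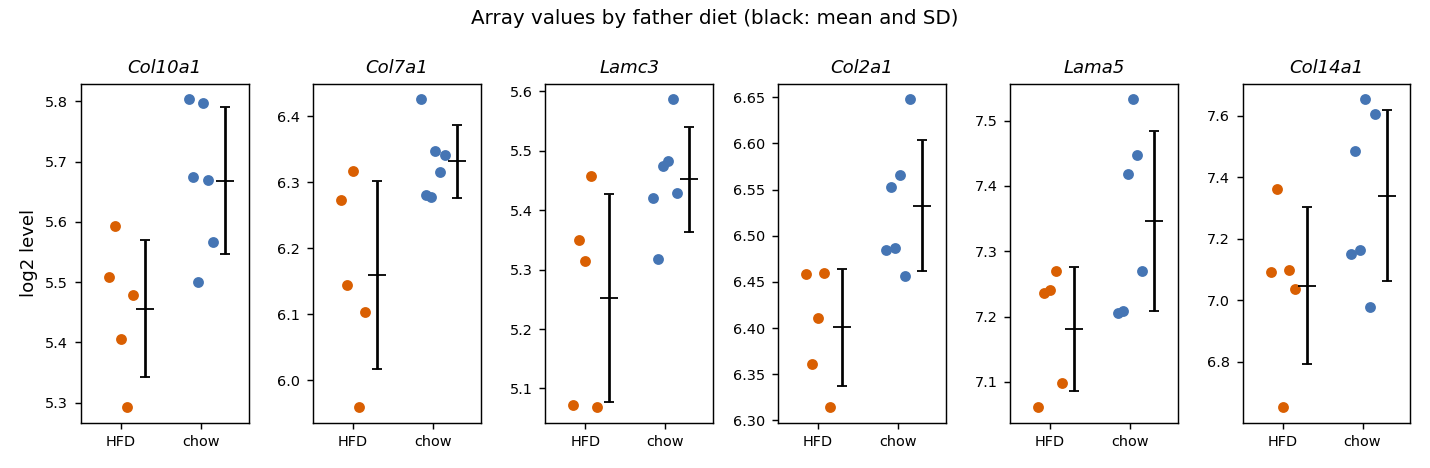
Log2 level of the 5 genes with an unadjusted p under 0.05 and of Col14a1 in each array, with HFD-father arrays left (orange) and chow-father arrays right (blue), and the mean and SD in black. The groups overlap in each panel; the axes do not start at 0 and differ between panels.

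The other members of that class differed by -0.12 to 0.13. Col12a1, a fibril-associated chain, was the one member of the class with a difference above 0, at 0.13, and Col6a4, a chain related to type VI collagen, the one gene with several probes. Its 3 probes differed by -0.12, -0.11 and -0.11. Spread within groups, as the SD of a gene's log2 levels around its group means, ran from 0.054 for Col5a3 to 0.37 for Col3a1, with a median of 0.13 over the 32 genes and 0.12 over all genes. An SD above that of Col3a1 was found for 2.8% of all genes, above that of Lama3 for 5.2%, above that of Col14a1 for 6.0%, above that of Col1a2 for 7.2% and above that of Col1a1 for 12.2%.

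Genes that process, bind or cleave collagen and laminin were read from lists chosen with earlier results of these data known. No gene of these lists passed after adjustment (limma). Of 26 measured collagen-processing genes 1 was higher and 0 lower at an unadjusted p under 0.05, where 2.97% of all genes were higher and 5.28% lower, with a median difference of 0.024. The higher one was Pcolce, an enhancer of procollagen C-proteinase, with 7.89, 7.47, 7.57, 7.68 and 7.84 in HFD-father arrays 1 to 5, against 7.33, 7.41 and 7.69 as the lowest, median and highest chow-father arrays. HFD-father arrays 1 and 5 exceeded every chow-father array, and the difference was 0.25 ± 0.088 (SE) (adjusted p = 0.462, limma). P4ha1, a catalytic subunit of the prolyl hydroxylase that stabilises the collagen helix, had 3 HFD-father arrays above every chow-father array and a difference of 0.13 ± 0.067 (SE) (adjusted p = 0.569, limma).

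Of 12 fibril partners 1 was lower and 0 higher at that level, against the same shares of all genes, with a median difference of 0.053. It was Vcan, a large proteoglycan of loose matrix, with 4.25, 4.08, 4.31, 4.23 and 4.16 in HFD-father arrays 1 to 5, against 4.18, 4.46 and 4.51 as the lowest, median and highest chow-father arrays, 2 HFD-father arrays below the chow-father range and a difference of -0.20 ± 0.070 (SE) (adjusted p = 0.462, limma). The Vcan probe was among the dimmest 30%, which an alternative fit left out. Aspn, a small leucine-rich proteoglycan that binds collagen, differed by 0.30 ± 0.16 (SE) (adjusted p = 0.586, limma), with HFD-father arrays 2 and 4 above every chow-father array.

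Of 15 matrix receptors 1 was higher and 1 lower, against the same shares of all genes. Itga1, the alpha chain of an integrin that binds collagen, had 8.67, 8.43, 8.28, 8.51 and 8.51 in HFD-father arrays 1 to 5, against 8.18, 8.32 and 8.46 as the lowest, median and highest chow-father arrays. In 3 HFD-father arrays it exceeded the chow-father range, with a difference of 0.17 ± 0.072 (SE) (adjusted p = 0.505, limma). Sdc1, a heparan sulfate proteoglycan of epithelial cells, lay below the chow-father range in 3 HFD-father arrays and differed by -0.17 ± 0.079 (SE) (adjusted p = 0.534, limma).

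Basement membrane partners (11 measured) had a median of 0.002, and 0 reached an unadjusted p under 0.05 in either direction. Fbln2, a fibulin of basement membranes and elastic fibres, differed by -0.099 ± 0.11 (SE) and Egflam, also called pikachurin, which binds dystroglycan, by 0.10 ± 0.11 (SE) (adjusted p = 0.806 and 0.81, limma). With each array left out Fbln2 ran from -0.17 (without chow-father replicate 3) to -0.031 (without chow-father replicate 5), and Egflam from 0.031 (without chow-father replicate 6) to 0.16 (without chow-father replicate 5). Among 23 matrix proteases and inhibitors the median was -0.062 and again 0 reached that level. Mmp23 differed by -0.17 ± 0.084 (SE) and the macrophage elastase gene Mmp12 by -0.27 ± 0.16 (SE) (adjusted p = 0.555 and 0.618, limma). Mmp23 was -0.10 without chow-father replicate 2.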

How the data were processed

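Total islet RNA was hybridised to one-colour arrays, 5 of HFD-father and 6 of chow-father daughters. Gene-level values were used as the authors deposited them, on a log2 scale read from their range, and already normalized, judging by near-equal quartiles. The submitters' processing notes list RMA and MAS5, with no role. Background correction is not given in the sources used here. An exon-level table was not used here, since its features were paired with no gene. The platform table named 1 gene for 15097 of the 27342 probes and several for 323, and 11922 were unlisted. Symbols were updated through Entrez numbers to RefSeq (GRCr8) for 15067 probes, and the probe of highest mean stood for each of 14324 genes.

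Differences, HFD-father minus chow-father, came from limma 3.58.1 in R 4.3.3, without covariates. Its two-sided p-values were adjusted by Benjamini-Hochberg over all 27342 probes, with a threshold of 0.05. The fit took no account of a separate centring of the array sets, under which its p-values may be too small. The fit was tested on simulated data. Correlations used 100000 permutations, or all orders where under 10 arrays entered (Python 3.11.15). Alternatives were a filter leaving out the dimmest 30% of probes, quantile normalization, median centring, the replicate number or array set as a block, the larger array set alone, averaging all probes of a gene, a covariate for stellate or for acinar markers, and leaving out each array.

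The genes, classes, pairs and lists were chosen with earlier results of these data known. Named with values were 9 measured of 17 preset chains, the 3 of lowest unadjusted p per class and the 2 of lowest p per partner list; any other gene given with a value was chosen after its values were seen. Dcn and Lum are in both the fibril partner and the stellate marker list. Arrays have no read depth, and their number limits the precision.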

Additional observations from a re-analysis of the deposited data

Results flagged for a closer look

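A single array stood apart from the rest of its group for 4 of the 28 named genes, by a test of the gap to its nearest neighbour against the range of the group (Dixon, 95%). Chance flags about 1 in 20 groups where values share a common scale, and 56 groups were tested. The larger and smaller array sets may have been centred separately, so that rate may not hold here. The Lamc1 and Fbln2 flags fall on arrays of the smaller set. Col11a2 was 7.22 in HFD-father array 1, where the other HFD-father arrays ran from 6.91 to 6.98, and its difference was -0.15 without that array. Lamc1 was 7.69 in chow-father array 6, where the other chow-father arrays ran from 7.89 to 7.98, and this array was also the lowest chow-father array in Col1a1, Col1a2, Col3a1 and Col4a1. The Lamc1 difference was 0.021 without it. Fbln2 was 5.23 in HFD-father array 5, below 5.47 to 5.55 in the other HFD-father arrays, and its difference was -0.041 without that array. Mmp23 was 5.93 in chow-father array 2, above 5.45 to 5.61 in the other chow-father arrays, and its difference was -0.10 without that array.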

How the results depend on the processing

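No collagen or laminin gene passed the adjusted threshold with limma under any alternative, the lowest adjusted p of the 32 ranging from 0.301 (without HFD-father replicate 1) to 0.955 (larger array set alone). With the array set as a block this lowest adjusted p was 0.613, against 0.446 in the main fit (limma). The number lower at an unadjusted p under 0.05 was 5 in the main comparison, where 5.28% of all genes were. It was 5 with the array set as a block (4.41% of all genes), 1 in the larger array set alone (3.13%) and 2 after median centring (3.04%). With each array left out it was 2 to 6 (3.48% to 6.19% of all genes). The number higher was 0 to 1, the 1 being Lamb2 without chow-father replicate 5. With each array left out the class medians ran from -0.087 to -0.025 for fibrillar collagens, -0.054 to 0.030 for basement membrane collagens, -0.055 to 0.017 for laminins and -0.12 to -0.060 for other collagens. Some signs turned. Col4a1 was -0.016 with the acinar covariate, -0.084 in the larger set, -0.021 after quantile normalization, -0.045 with the stellate covariate and -0.054 to 0.056 with each array left out. Col4a3 was 0.012 after median centring and -0.089 to 0.030 with each array left out. In the larger set Col3a1 was -0.041, Lamc1 -0.031 and Fbln2 0.008. With each array left out Col3a1 ran from -0.022 to 0.22, Lamc1 from -0.004 to 0.16, Col1a1 from -0.13 to 0.032, Col1a2 from -0.13 to 0.048 and Col5a2 from -0.070 to 0.007. Col5a1, from -0.099 to -0.032, and Col4a4, from -0.058 to -0.003, kept their sign. The cause of these turns was not tested.

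Groups share replicate numbers 1 to 5. Deviations of same-numbered arrays correlated at 0.33 for number 1 and at -0.031, 0.005 and -0.025 for numbers 2 to 4. Number 5 gave -0.318, but its arrays are in the smaller set. Under separate centring a low array there comes with higher values in the others, so this value cannot decide pairing. The numbers were not taken as pairs in the main fit. With the replicate block, a fit that drops chow-father array 6, 4 genes were lower at an unadjusted p under 0.05, against 4.12% of all genes. Col3a1 was -0.022 and Col4a1 -0.054 in that fit, and no gene passed after adjustment. In the check of deviations 1 of 5 HFD-father arrays, array 1, correlated best with its own number. For array 5 that check has the same limit.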
